A study of Mus musculus with 2 samples.

Results

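Fos, Fosb, Jun, Junb, Jund, Egr1, Atf3, Ier2, Ier3 and Nr4a1 are 10 immediate-early genes, and their transcripts were examined in single cells of the mouse stria vascularis (SV), the vascularised epithelium of the cochlear lateral wall. The members were given as a list and matched by Ensembl identifier, and all 10 were among the 27040 genes listed in both count matrices. One library came from the pooled SV of 10 Tie2-GFP mice, in which the Tie2 (Tek) promoter drives GFP in vascular endothelial cells (ECs), and one from 10 NG2-DsRed mice, in which the NG2 (Cspg4) promoter drives DsRed in pericytes (PCs) and other NG2-expressing cells. Each pool held 20 cochleae of mice aged 1 to 3 months. The study used mice of both sexes, and the sexes in each pool are not stated. The tissue was digested at 37 °C with collagenase for 30 min and then papain for 30 min, and no other treatment was given. With 1 library per line, the mouse line, the batch and the software version (7.0.0 for Tie2-GFP and 3.0.0 for NG2-DsRed in the matrix headers) cannot be told apart, and no test between libraries was possible. All tissue was digested, so levels present before and after digestion cannot be told apart either.

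Immediate-early genes are transcribed within minutes of a stimulus, without new protein synthesis, when kinases activate factors already bound to their promoters. Fos and Fosb pair with Jun, Junb or Jund to form the dimeric transcription factor AP-1, Atf3 can also pair with Jun proteins, and Egr1 and Nr4a1 are a zinc finger factor and an orphan nuclear receptor. Their transcripts are short-lived, and enzymatic dissociation of tissue is a known stimulus for them. Ier2 and Ier3 are induced with the others, but Ier3 is a regulator of survival signalling and not a transcription factor.

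Many of these promoters respond to cAMP and calcium through a response element (CRE) whose core half-site is TGACG. In the 250 bases upstream of the RefSeq start (GRCm38.p6), the half-site was found on either strand in 5 of the 8 members in the promoter table, Fos, Fosb, Junb, Atf3 and Nr4a1, and in 17.8% of 32851 promoters. Promoters of Egr1 and Ier2 were not analysed here. The RefSeq start can differ from the gene start given below. The Jund window, chr8:70697489-70697738, lies upstream of that gene start without adjoining it, so the bases just before it were not searched. The sequences of Fos and Junb, whose levels were the most closely correlated pair in Tie2-GFP endothelial barcodes below, and of Nr4a1, with the most half-sites, are shown 5′ to 3′ along the gene. Capitals mark TGACG, or CGTCA where the half-site lies on the opposite strand.
Fos, chr12:85473640-85473889, plus strand: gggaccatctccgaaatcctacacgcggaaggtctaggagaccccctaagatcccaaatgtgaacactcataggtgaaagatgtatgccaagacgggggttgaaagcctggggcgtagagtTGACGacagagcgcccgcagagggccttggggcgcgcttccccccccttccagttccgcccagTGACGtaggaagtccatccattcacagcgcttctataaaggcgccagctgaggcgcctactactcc
Junb, chr8:84978749-84978998, minus strand: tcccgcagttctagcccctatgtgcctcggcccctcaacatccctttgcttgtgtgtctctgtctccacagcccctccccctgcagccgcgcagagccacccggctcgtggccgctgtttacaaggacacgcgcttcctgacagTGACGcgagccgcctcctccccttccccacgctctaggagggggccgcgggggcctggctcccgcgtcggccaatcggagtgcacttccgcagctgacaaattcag
Nr4a1, chr15:101266596-101266845, plus strand: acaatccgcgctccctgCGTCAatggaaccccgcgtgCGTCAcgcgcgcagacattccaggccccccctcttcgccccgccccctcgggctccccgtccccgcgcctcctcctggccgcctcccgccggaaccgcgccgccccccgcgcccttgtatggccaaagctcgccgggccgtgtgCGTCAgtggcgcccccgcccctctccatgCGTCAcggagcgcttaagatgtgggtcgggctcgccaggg
Fos held half-sites at positions -129 to -125 and -66 to -62 from its start, Junb held one at -106 to -102, and Nr4a1 held 4 on the opposite strand, at -233 to -229, -213 to -209, -69 to -65 and -40 to -36. The full palindrome TGACGTCA was in none of the 8 windows and in 1.55% of all promoters, and the CArG box, the serum response element core, was in none of the 8 and in 1.47%. TATAAA was found in Fos alone of the 8, at -33 to -28, and in 12.4% of all promoters. These are matches of letters in one window and show no binding. Bases further upstream were not searched, so a motif absent from these windows may still lie elsewhere in the promoter.

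Barcodes were classed by marker genes. Endothelial barcodes had a UMI (a counted molecule) of at least 4 of the 6 genes Pecam1, Cdh5, Cldn5, Flt1, Egfl7 and Ramp2, and mural barcodes, the class that holds PCs, had at least 3 of the 4 genes Pdgfrb, Rgs5, Vtn and Notch3 and at most 1 endothelial gene. Intermediate barcodes, named for the melanocyte-like intermediate cells of the SV, had UMIs of all 3 of Dct, Tyr and Kcnj10. The Tie2-GFP library held 379 endothelial and 87 intermediate barcodes among 633, with 4 mural barcodes set aside, and the NG2-DsRed library held 58 endothelial, 97 mural and 23 intermediate barcodes among 201. The 2 NG2-DsRed barcodes that met 2 rules were left out, and no barcode string occurred in both libraries. No doublet caller was run. Median depth was 7431 UMIs in Tie2-GFP endothelial, 15955 in Tie2-GFP intermediate, 9146 in NG2-DsRed endothelial, 3027 in mural and 10383 in NG2-DsRed intermediate barcodes.

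Markers outside the rules were in keeping with most class names, but NG2-DsRed endothelial barcodes also held mural markers. Kdr and Tek, receptors of ECs, stood at 300 and 276 CPM (UMIs per 1000000) in Tie2-GFP endothelial barcodes and at 0 UMIs in mural and intermediate barcodes. Of the other endothelial markers, Esam stood at 469 CPM in mural against 583 CPM in NG2-DsRed endothelial barcodes, and the 6 summed to 533 against 3031 CPM. Cspg4 stood at 656 CPM and the potassium channel gene Kcnj8 at 593 CPM in mural barcodes. Cspg4 also had a UMI in 78.3% of NG2-DsRed (135 CPM) and 37.9% of Tie2-GFP (54.0 CPM) intermediate barcodes, where Kcnj8 was at 0. In intermediate barcodes of Tie2-GFP and NG2-DsRed, the pigment-cell genes Mlana (1069 and 898 CPM) and Slc45a2 (1493 and 1551 CPM) were present, whereas Tyrp1 was at 0 and Pmel at 1 UMI in each. Of the 58 NG2-DsRed endothelial barcodes, 10 had UMIs of 2 mural genes and 32 of 3 or 4. The 6 mural markers outside the rule summed to 1072 CPM there, against 4375 CPM in mural and 189 CPM in Tie2-GFP endothelial barcodes. The 3 contractile genes summed to 743 CPM, against 7351 and 22.1 CPM. Ratios of this class to mural barcodes therefore compare classes of barcodes and not pure cell types. Erythroid genes summed to 2669 CPM in Tie2-GFP endothelial barcodes and to at most 22.8 CPM elsewhere, macrophage genes to at most 12.0 CPM, and marginal, basal and fibrocyte genes to at most 521, 361 and 244 CPM in any class. Per the study's methods, suspensions were sorted for GFP or DsRed where enrichment was required, and the series describes both batches as sorted. A sort on the reporter would be expected to remove intermediate barcodes from Tie2-GFP and endothelial barcodes from NG2-DsRed, and how those present here passed was not tested. Mitochondrial transcripts took a median of 9.31% of UMIs in Tie2-GFP intermediate barcodes and 5.55% in those of NG2-DsRed, against 1.82% to 2.71% in the other classes. The limit of 5% in the study's methods, with its limits on genes, UMIs and ribosomal transcripts, leaves 6 and 7 intermediate barcodes, so all deposited barcodes were used. Their part in the results was not tested.

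The 10 members together took 27291 CPM (95% exact Poisson interval 27117 to 27467) of the UMIs of Tie2-GFP endothelial barcodes, 2.73% of all transcripts counted. In NG2-DsRed, the summed level was 39008 CPM (38497 to 39523) in endothelial, 26054 (25508 to 26609) in mural and 8328 (7970 to 8697) in intermediate barcodes. Tie2-GFP intermediate barcodes had the lowest, 3108 CPM (3013 to 3205). In both libraries the intermediate barcodes were therefore lowest, and in NG2-DsRed all 10 members stood in the order endothelial, mural, intermediate. The intervals cover counting error only, since cells of 1 library are not replicates, and the 3′ libraries count each molecule once whatever its length.

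**Figure D1:**
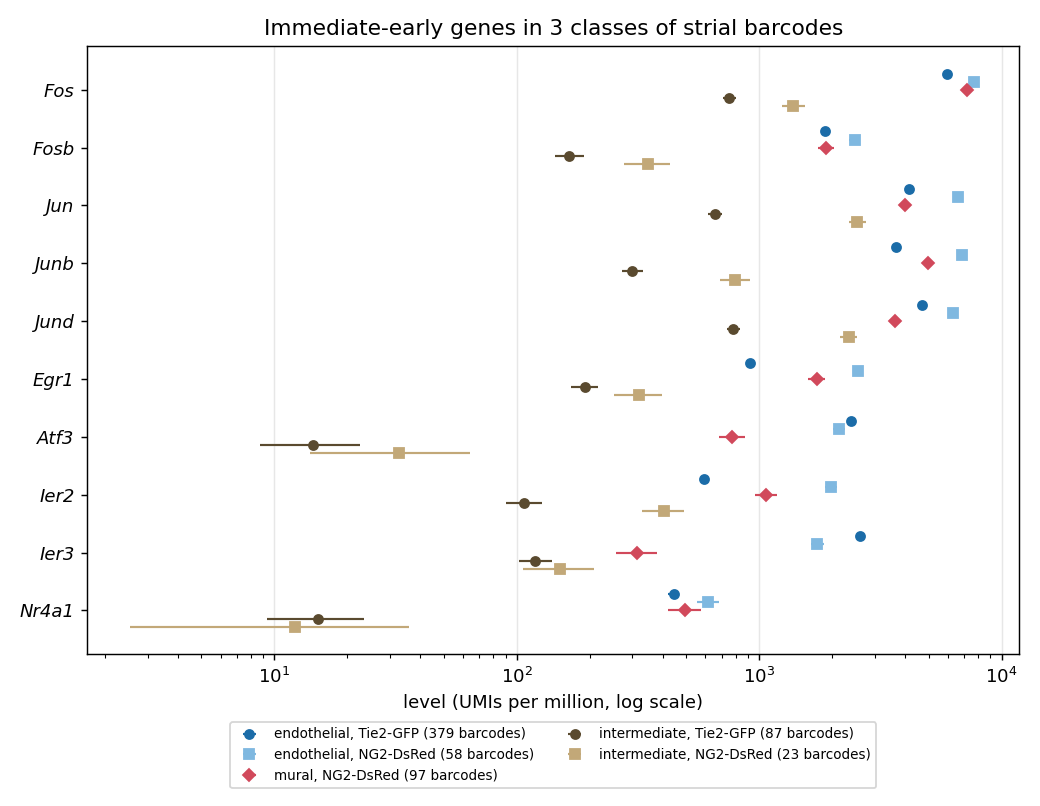
Level of each member (CPM, log scale) in 5 groups of barcodes, with points for summed counts and bars for 95% exact Poisson intervals. Both intermediate groups lie left of the endothelial groups for all 10 genes, and Atf3 and Nr4a1 are at 32.7 CPM or less there.

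The partners of AP-1 from the Fos family differed widely between intermediate and vascular barcodes. Fos (chr12:85473890-85477273, 3 to 4 exons) was the highest member in Tie2-GFP endothelial, NG2-DsRed endothelial and mural barcodes, at 5930, 7692 and 7188 CPM, and stood at 753 and 1384 CPM in the intermediate barcodes of Tie2-GFP and NG2-DsRed. Endothelial over intermediate, this was 7.87-fold (log2 2.98, counting interval 2.88 to 3.07) in Tie2-GFP and 5.55-fold (2.47, 2.31 to 2.64) in NG2-DsRed. In summed level, Fos hardly separated the vascular classes, with an NG2-DsRed endothelial level 1.07-fold that of mural barcodes (log2 0.10, 0.03 to 0.17). From barcode to barcode, the classes differed more. The median Fos level was 76.6 UMIs per 10000 in NG2-DsRed endothelial barcodes and 39.5 in mural barcodes. At an equal depth of 2000 UMIs, Fos was found in 99.5% and 80.1% of these barcodes. Fosb (chr7:19302696-19310051) was lower throughout, at 1869, 2477 and 1887 CPM in the same vascular groups and at 165 and 347 CPM in intermediate barcodes. Its ratios of endothelial over intermediate were 11.3-fold and 7.10-fold.

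Within the Jun family, Jun and Jund, whose genes have a single exon, differed less than Junb from endothelial or mural to intermediate barcodes. Jun (chr4:95049034-95052222) stood at 4168 CPM in Tie2-GFP endothelial and 660 in intermediate barcodes, and in NG2-DsRed at 6639 in endothelial, 3996 in mural and 2543 in intermediate barcodes. Jund (chr8:70698949-70700616), the member known for steady expression in resting cells, followed the same course at 4688 and 782 CPM in Tie2-GFP and at 6308, 3626 and 2339 CPM in NG2-DsRed. Mural over intermediate, Jun was 1.57-fold (log2 0.65, 0.51 to 0.79) and Jund 1.55-fold (0.63, 0.49 to 0.78), the only members under 2-fold in that comparison. Junb (chr8:84974484-84978718), a Jun protein that activates many targets less strongly, stood at 3677 and 300 CPM in Tie2-GFP and at 6858, 4980 and 796 CPM in NG2-DsRed. It was 12.2-fold (log2 3.61, 3.47 to 3.76) and 8.59-fold (3.10, 2.90 to 3.32) higher in endothelial than in intermediate barcodes.

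The balance of the families was not the same in all groups. There were 1.61 Jun-family UMIs per Fos-family UMI in Tie2-GFP endothelial barcodes (counting interval 1.58 to 1.63) and 1.90 (1.77 to 2.04) in intermediate barcodes of that library. In NG2-DsRed the ratio was 1.95 (1.89 to 2.01) in endothelial, 1.39 (1.32 to 1.46) in mural and 3.28 (2.94 to 3.67) in intermediate barcodes. The Tie2-GFP intermediate value lay within the range of the endothelial values, the mural value below it and the NG2-DsRed intermediate value above it.

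Atf3 (chr1:191170296-191218039), a stress-induced factor, separated endothelial from intermediate barcodes more than any other member. It stood at 2390 CPM in Tie2-GFP endothelial barcodes and at 14.5 CPM (19 UMIs) in intermediate ones, 161-fold apart (log2 7.33, 6.72 to 8.10). In NG2-DsRed it stood at 2132 CPM in endothelial, 773 in mural and 32.7 (8 UMIs) in intermediate barcodes, with an endothelial over mural ratio of 2.75-fold (log2 1.46, 1.27 to 1.66). Nr4a1 (chr15:101254269-101274795) was also close to absent from intermediate barcodes, at 15.2 CPM in Tie2-GFP and 12.2 CPM (3 UMIs) in NG2-DsRed, against 444 and 618 CPM in endothelial and 493 CPM in mural barcodes. The NG2-DsRed ratio of endothelial over intermediate, 43.3-fold, had a counting interval of 4.10 to 7.94 on the log2 scale. Its log2 value of 5.44 became 4.16 in a single random draw of 2000 UMIs per barcode and 4.24 with barcodes of 2 classes kept.

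Ier3 (chr17:35821684-35822923) was the member that differed most between endothelial and mural barcodes. It stood at 1740 CPM in NG2-DsRed endothelial and 313 CPM in mural barcodes, 5.54-fold apart (log2 2.47, 2.18 to 2.78), and was higher still in Tie2-GFP endothelial barcodes, at 2612 CPM. Intermediate barcodes had 119 and 151 CPM, so that Ier3 was only 2.05-fold higher in mural than in intermediate barcodes (log2 1.04, 0.50 to 1.63). Egr1 stood at 919 and 191 CPM in endothelial and intermediate barcodes of Tie2-GFP, a log2 ratio of 2.26. The ratio became 3.33 in a single random draw of 2000 UMIs per barcode and 2.55 with barcodes weighted equally. In NG2-DsRed, Egr1 stood at 2558, 1727 and 318 CPM in endothelial, mural and intermediate barcodes. Ier2, a nuclear protein, took the same order, with 594 and 107 CPM in Tie2-GFP and 1985, 1071 and 404 CPM in NG2-DsRed.

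**Figure D2:**
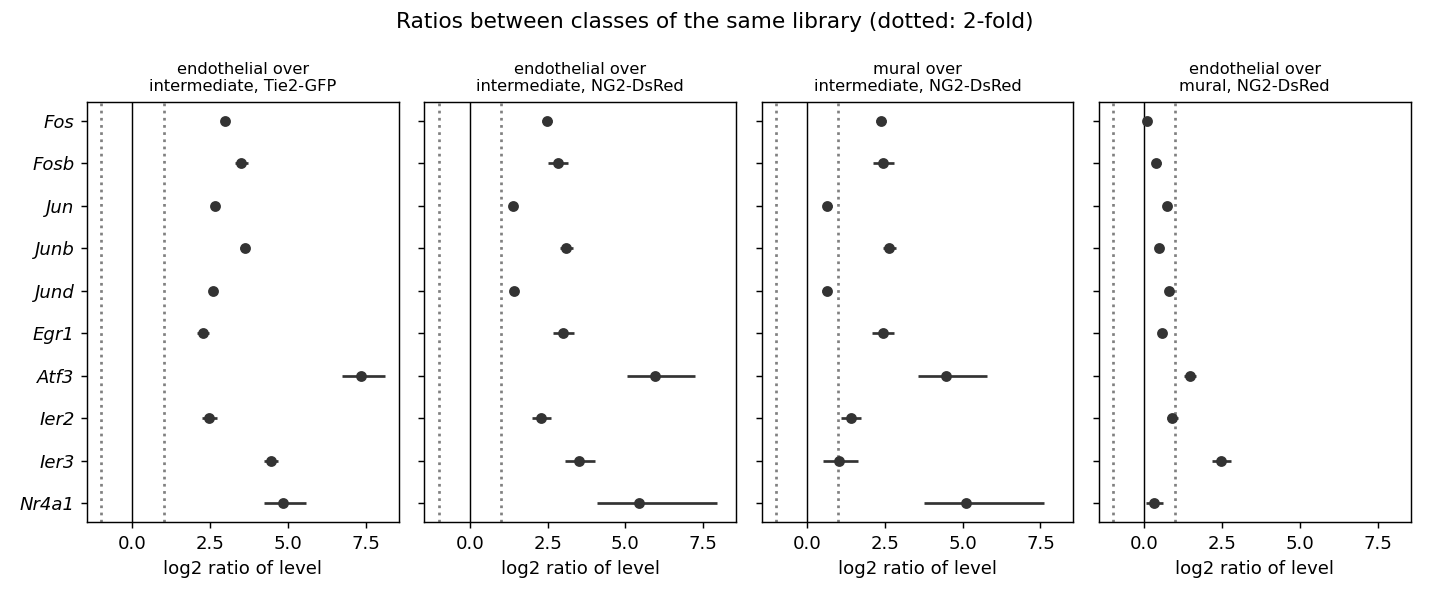
Log2 ratio of level between classes of the same library for each member, with 95% counting intervals and dotted lines at 2-fold. All points lie above 0, and only Atf3 and Ier3 exceed 2-fold in the comparison of endothelial with mural barcodes.

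Counted over the list, 10 of 10 members were at least 2-fold higher in endothelial than in intermediate barcodes in Tie2-GFP, where 28.6% of 8391 genes with enough UMIs were, and 10 of 10 in NG2-DsRed, where 29.7% of 2904 were. Mural over intermediate, 8 of 10 passed 2-fold against 25.6% of 2143 genes. Endothelial over mural, 2 of 10 passed 2-fold against 15.5% of 3328 genes, and 0 of 10 were at least 2-fold lower, against 13.2%. The median log2 ratio of the members was 3.24, 2.91, 2.40 and 0.65 in these comparisons, beside 0.22, 0.25, 0.13 and -0.01 for all genes. No replicate test was possible, and these counts describe the libraries. The members were chosen with earlier results of these data known. For the sums, the study's limits would leave 4638 CPM in 6 Tie2-GFP and 13910 CPM in 7 NG2-DsRed intermediate barcodes, beside 27532 and 39229 CPM in endothelial and 25050 CPM in mural barcodes. Endothelial over intermediate, the sum would then be 5.94-fold in place of 8.78-fold in Tie2-GFP and 2.82-fold in place of 4.68-fold in NG2-DsRed, and mural over intermediate 1.80-fold in place of 3.13-fold, below 2-fold.

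The same class in the other library gave a scale for these differences. Between the endothelial barcodes of NG2-DsRed and Tie2-GFP, the summed level differed by 1.43-fold, Ier2 by 3.34-fold and Egr1 by 2.78-fold, while Atf3 was at 0.892 and Ier3 at 0.666 of its Tie2-GFP level. Between the intermediate barcodes, Jun differed by 3.86-fold, Ier2 by 3.77-fold and the sum by 2.68-fold. Each difference between classes was set against the larger library difference of the classes it compares, with no second library for mural barcodes. It was larger for 10 of 10 members endothelial over intermediate in Tie2-GFP, for 8 in NG2-DsRed (Jun and Jund were the others) and for 7 mural over intermediate. Endothelial over mural, where the endothelial library difference alone serves, it was larger for 4 members, Jun, Jund, Atf3 and Ier3. It was smaller for Fos, Fosb, Junb, Egr1, Ier2 and Nr4a1. The ratio of endothelial to mural barcodes is taken within the same library, where a shift shared by its classes cancels. The gap between libraries is thus no measure of its error. The endothelial groups also differ in make-up, with 3 or 4 mural genes in 32 of 58 NG2-DsRed and 26 of 379 Tie2-GFP barcodes. The order of endothelial and mural barcodes in those 6 was not tested. Introns may have been counted in one library and not the other. For Jun, Jund and Ier2, which have no intron, the endothelial gap was 1.59-fold, 1.35-fold and 3.34-fold. Their CPM is divided by all UMIs, with those of introns if counted, so these gaps cannot settle this. The part of intron counting was not tested.

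Endothelial markers and members in intermediate barcodes were expressed as a percentage of their endothelial level. Empty droplets were not analysed, and the part of free RNA in these values was not tested. In Tie2-GFP intermediate barcodes, Tek and Kdr were at 0% of their endothelial level and Cd34, Cd93 and Esam at 0.220%, 0.111% and 0.327%, whereas Fos stood at 12.7%, Jun at 15.8%, Jund at 16.7% and Egr1 at 20.8%. Atf3, at 0.605%, and Nr4a1, at 3.43%, came closest to those markers. The glucose transporter gene Slc2a1 was at 4.28%. In NG2-DsRed intermediate barcodes, Tek, Kdr, Cd34, Cd93 and Esam had 0 UMIs, which allows a level of up to 12.2 CPM. The endothelial levels of Tek and Kdr in that library were 224 and 207 CPM. In the same intermediate barcodes, Jun stood at 38.3% and Fos at 18.0% of the endothelial level, but Atf3 at 1.53%, Nr4a1 at 1.98% and Slc2a1 at 2.91%. At most 1 endothelial and 1 mural rule gene had a UMI in all 87 Tie2-GFP and in 22 of 23 NG2-DsRed intermediate barcodes. Among NG2-DsRed endothelial barcodes, the summed members stood at 40566 CPM in the 16 with 0 or 1 mural genes and at 38089 CPM in the 32 with 3 or 4. In Tie2-GFP these values were 27358 CPM (347 barcodes) and 26595 CPM (26 barcodes).

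Detection in single barcodes did not follow the levels alone. Jund, the most widely found in Tie2-GFP although lower than Fos in endothelial barcodes, had a UMI in 99.7% of Tie2-GFP endothelial barcodes (Clopper-Pearson interval 98.5 to 100.0) and in 87.4% (78.5 to 93.5) of intermediate ones. At an equal depth of 2000 UMIs, which leaves out shallower barcodes (362 of 379 and 85 of 87 kept), the expected shares were 98.2% and 61.6%. Fos had a UMI in 96.6% and 63.2% of these barcodes, or 93.1% and 33.2% at equal depth, and Atf3 in 88.7% and 16.1%, or 81.6% and 2.75%. In NG2-DsRed, Fos was found in 58 of 58 endothelial, 78.4% of mural (68.8 to 86.1) and 69.6% of intermediate barcodes (47.1 to 86.8), which at equal depth came to 99.5%, 80.1% and 56.3% (58, 78 and 22 barcodes kept). The widest gaps between the vascular classes were those of Ier3, found in 88.0% of endothelial and 31.6% of mural barcodes at equal depth, and Atf3, at 84.0% and 29.9%.

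The level of the whole set varied more from one barcode to the next in mural and intermediate barcodes than in endothelial ones. In Tie2-GFP endothelial barcodes the summed level had a median of 25086 CPM, with 9976 at the 10th and 45658 at the 90th percentile, and in NG2-DsRed endothelial barcodes the median was 39354 CPM, with 21210 and 58579. Mural barcodes reached as high, with 57140 CPM at the 90th percentile and a maximum of 86939, but had 867 CPM at the 10th. Below 1000 CPM lay 14 of 97 mural barcodes (14.4%), 37 of 87 Tie2-GFP intermediate barcodes (42.5%) and 4 of 23 in NG2-DsRed (17.4%), against 3 of 379 Tie2-GFP (0.792%) and 0 of 58 NG2-DsRed endothelial barcodes. At least 10000 CPM was reached by 341 of 379 Tie2-GFP and 57 of 58 NG2-DsRed endothelial barcodes, by 60.8% of mural barcodes, and by 3.45% and 30.4% of intermediate barcodes. The median depth of the 14 low mural barcodes was 2272 UMIs, against 3398 for those at or above 10000 CPM. For the 37 low Tie2-GFP intermediate barcodes it was 7747 UMIs with 12.7% mitochondrial transcripts, against 18220 and 7.29% in the 3 high ones.

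**Figure D3:**
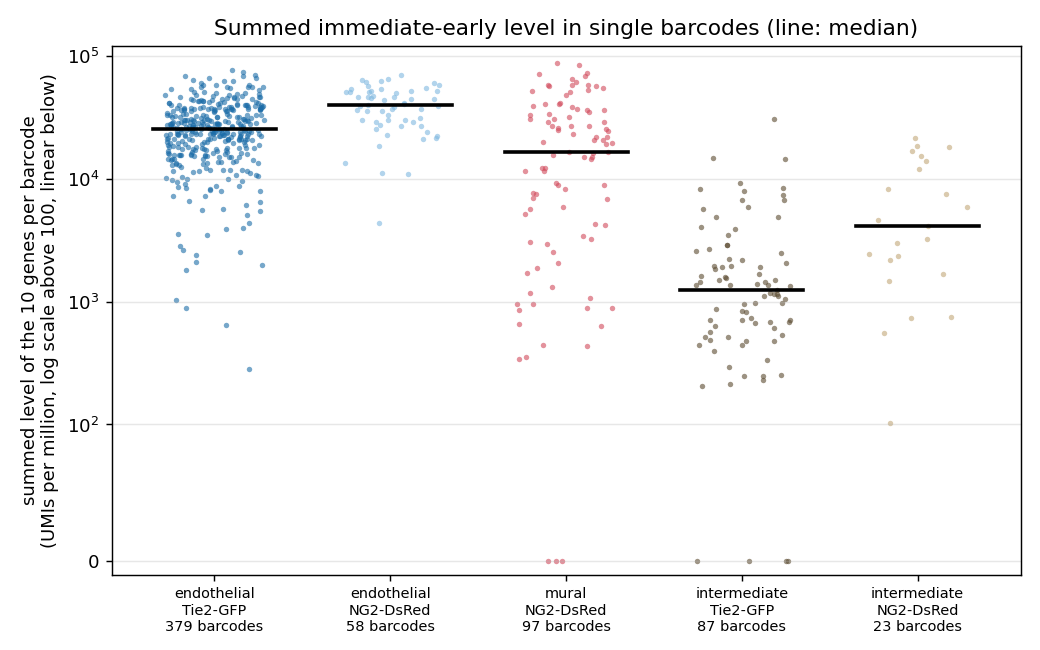
Summed level of the 10 members in each barcode (CPM, log scale above 100 and linear below) in 5 groups, with points spread sideways at random and a line at the median. Endothelial barcodes form a band around 25086 and 39354 CPM, and mural and intermediate barcodes spread down to 0 or 103 CPM.

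Gene by gene, the spread was expressed as the squared coefficient of variation between barcodes beyond counting noise, for members with at least 50 UMIs in a class. In Tie2-GFP endothelial barcodes it ran from 0.318 for Jund and 0.408 for Junb to 1.19 for Nr4a1 and 1.64 for Egr1, beside a median of 0.381 over 4084 genes found in at least 25% of barcodes. In NG2-DsRed endothelial barcodes it was lower, from 0.196 for Jund to 0.838 for Nr4a1 (median of genes 0.265). Mural barcodes gave 1.02 for Jund, 1.03 for Fos, 2.15 for Nr4a1 and 4.53 for Atf3 (median of genes 0.466), and 75.5% of mural Atf3 UMIs came from 10 of 97 barcodes. In Tie2-GFP intermediate barcodes Egr1 reached 7.26, Fos 6.27 and Junb 5.87, whereas Jund was at 0.665 and Ier3 at 0.894 (median of genes 0.305). There, 9 of 87 barcodes held 70.7% of the Fos UMIs but 35.3% of the Jund UMIs. Jund had the lowest spread of the members measured in each of the 5 groups.

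**Figure D4:**
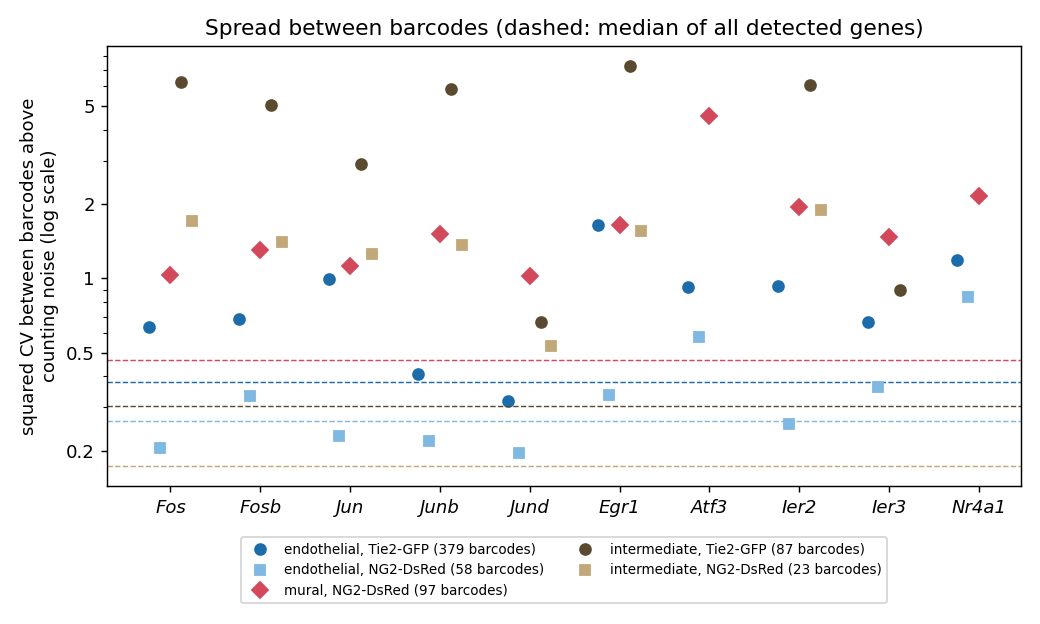
Squared coefficient of variation between barcodes beyond counting noise (log scale) for each member with at least 50 UMIs in a group, with dashed lines at the median of all detected genes of that group. Jund is lowest in every group, and Fos, Fosb, Junb, Egr1 and Ier2 lie above 5 in Tie2-GFP intermediate barcodes.

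Members varied together across barcodes. The median Pearson r of the 45 pairs, on the log of UMIs per 10000, was 0.36 over 379 Tie2-GFP endothelial barcodes and 0.47 over 58 in NG2-DsRed, 0.56 over 97 mural barcodes, and 0.48 and 0.42 over 87 and 23 intermediate barcodes. All pairs of detected genes had medians of 0.01 to 0.04 in the same groups. At least 0.3 was reached by 31, 36, 38, 37 and 30 of the 45 pairs, against 0.144%, 2.54%, 1.61%, 3.23% and 11.2% of all pairs. All pairs were not matched to the members for level, and counting noise lowers r where counts are low. The genes behind all pairs were found in at least 25% of barcodes, which Atf3 and Nr4a1 were not in intermediate barcodes. Over the 8 members that were, 24 of 28 pairs in Tie2-GFP and 28 of 28 in NG2-DsRed intermediate barcodes reached 0.3, with medians of 0.60 and 0.69. Barcodes of a group share a library and vary in depth and mitochondrial share, so these values are descriptions. After removal of depth and mitochondrial percent the medians were 0.34 and 0.49 in endothelial, 0.49 in mural and 0.42 and 0.35 in intermediate barcodes.

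The pairs were not alike. Fos and Junb were the closest pair in Tie2-GFP endothelial barcodes (r = 0.64) and in Tie2-GFP intermediate barcodes (0.80), Fosb and Jund in NG2-DsRed endothelial barcodes (0.80), Fos and Fosb in mural barcodes (0.82), and Fos and Jun in NG2-DsRed intermediate barcodes (0.86). Jun and Ier3 were uncorrelated in Tie2-GFP endothelial barcodes (0.00) and correlated in those of NG2-DsRed (0.47). In mural barcodes Ier3 had a median r of 0.27 with the other members, against 0.52 to 0.73 for each of those. Ier3 also had the fewest mural UMIs of the members, 104, found in 39.2% of barcodes, and counting noise lowers r. Nr4a1, with 164 UMIs in 39.2% of barcodes, had a median r of 0.53. The part of counting noise was not tested. In Tie2-GFP endothelial barcodes Atf3 had the highest median r with the others (0.53), and Nr4a1 the lowest (0.26). Atf3 and Nr4a1 had 3 to 20 UMIs in intermediate barcodes, too few for their r to be read there.

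**Figure D5:**
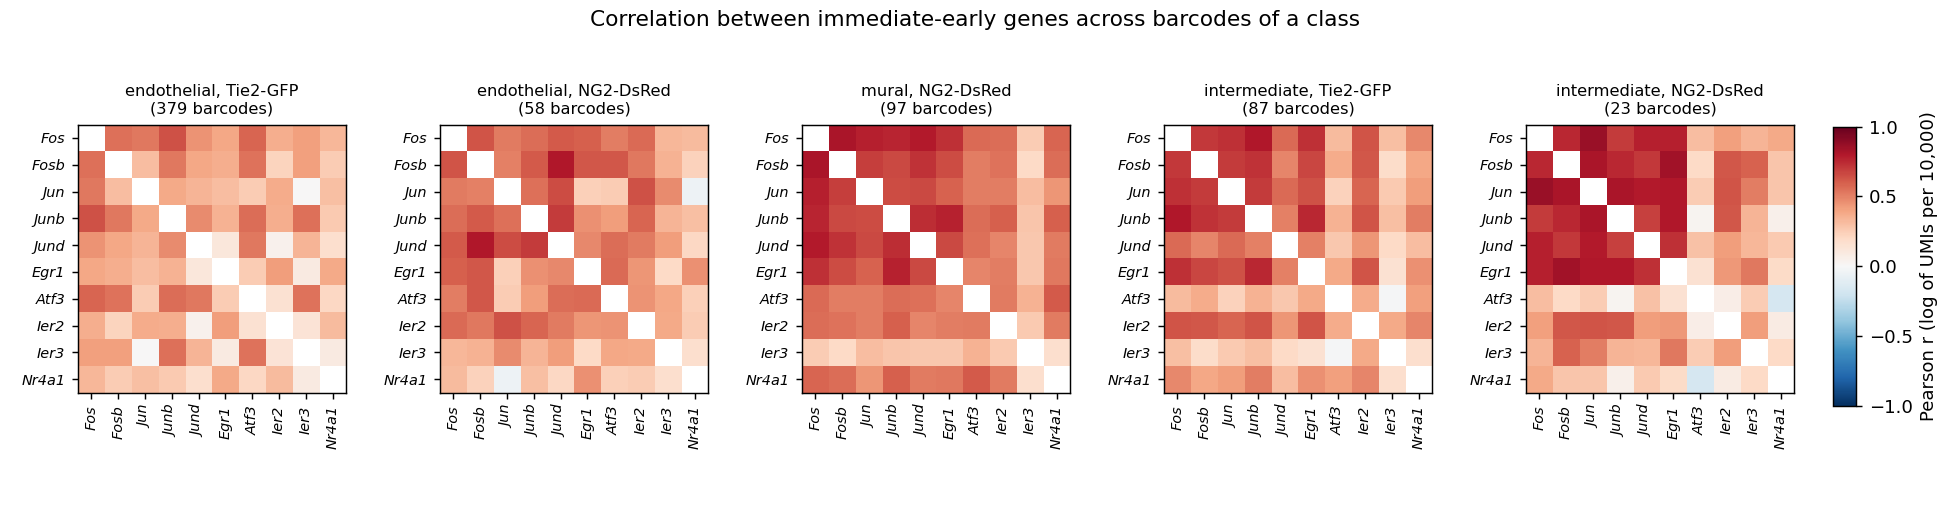
Pearson r between each pair of members across the barcodes of 5 groups, on the log of UMIs per 10000, coloured from -1 to 1 with the diagonal left blank. Most squares are above 0, the block of Fos, Fosb, Jun, Junb, Jund and Egr1 is darkest in mural and intermediate barcodes, and the Ier3 row is pale in mural barcodes.

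Early-response genes led those whose levels went most closely with the summed members. Zfp36, which destabilises short-lived transcripts, and Dusp1, a phosphatase that turns off MAP kinases, were each among the 10 closest genes in 4 of the 5 groups, and Btg2, Klf2 and Socs3 in 3. Zfp36 came first in Tie2-GFP endothelial (r = 0.60) and mural barcodes (0.66), Socs3, an inhibitor of cytokine signalling, in NG2-DsRed endothelial barcodes (0.65), Btg2, an antiproliferative gene, in Tie2-GFP intermediate barcodes (0.71), and Dusp1 in NG2-DsRed intermediate barcodes (0.78, over 23 barcodes). In Tie2-GFP intermediate barcodes the chaperone genes Hspa1a (0.64) and Hspa1b (0.61) were also among them. The other 9 genes of the NG2-DsRed intermediate group, led by Dda1 (0.72) and Mrpl55 (0.71), were in no other group's list.

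Genes linked to the members in function were followed in lists of the pathway, chosen with earlier results of these data known. Of 38 feedback and co-induced genes, 27 could be measured in both libraries, and 25 were at least 2-fold higher in endothelial than in intermediate barcodes in both, against 24.5% of 2873 genes. Klf2, a flow-responsive factor of ECs, stood at 2086 and 16.0 CPM in endothelial and intermediate barcodes of Tie2-GFP, and at 5052, 605 and 16.3 CPM in endothelial, mural and intermediate barcodes of NG2-DsRed. Cyr61, a matricellular gene, was as high in mural (313 CPM) as in NG2-DsRed endothelial barcodes (265 CPM), with 0 UMIs in NG2-DsRed intermediate barcodes, which allows a level of up to 12.2 CPM. Gadd45g, a growth arrest gene, stood at 730 and 12.2 CPM in Tie2-GFP endothelial and intermediate barcodes and at 357, 147 and 4.08 CPM in NG2-DsRed. Plk2, a stress-induced kinase, stood at 702 CPM in NG2-DsRed endothelial but 12.0 CPM in mural barcodes. Of the AP-1 partners, 6 of 19 were measured in both libraries and 4 were higher in endothelial barcodes in both, Maff, Mafk, Fosl2 and Atf4. Fosl2, a Fos relative, stood at 468 and 17.5 CPM in Tie2-GFP and at 102, 99.3 and 8.16 CPM in NG2-DsRed.

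Of the EGR, NR4A and IER relatives, 4 of 9 were measured in both libraries. At least 2-fold higher in endothelial barcodes in both were 3, Nr4a2, Ier5 and Ier5l, against 24.5% of all genes. Nr4a2, the close relative of Nr4a1, stood at 270 and 2.28 CPM in Tie2-GFP endothelial and intermediate barcodes, and at 152, 105 and 0 CPM in NG2-DsRed. Of 15 upstream regulators, 5 were measured in both libraries and 2 were at least 2-fold higher in endothelial barcodes in both, against 24.5% of all genes. These were the ETS factor gene Elk3 (270 and 35.8 CPM in Tie2-GFP) and the kinase gene Rps6ka3 (96.7 and 35.8 CPM). The median log2 ratio of the upstream regulators measured was 0.53 in Tie2-GFP and 0.36 in NG2-DsRed, beside 0.22 and 0.25 for all genes. Of these lists, heat-shock genes included, 0 genes measured in both libraries were at least 2-fold lower in endothelial barcodes in both, against 13.5% of all genes. In Tie2-GFP alone, 2 of 16 AP-1 partners, 1 of 37 feedback genes and 1 of 13 upstream regulators were lower, against 17.7%.

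Mural over intermediate, 16 of 21 feedback genes measured, 3 of 3 relatives, 0 of 2 AP-1 partners and 0 of 3 upstream regulators were at least 2-fold higher in mural barcodes, against 25.6% of all genes. Endothelial over mural, 12 of 27 feedback genes were at least 2-fold higher and 2 lower, 2 of 4 relatives were higher, and 0 of 7 AP-1 partners differed by 2-fold, against 15.5% of all genes higher and 13.2% lower. Nfkbia, an inhibitor of NF-κB, stood at 815 CPM in NG2-DsRed endothelial and 205 CPM in mural barcodes, and Ier5, an Ier2 relative, at 368 and 162 CPM. Of the upstream regulators 2 of 6 were higher in endothelial barcodes, among them Elk3 (215 and 105 CPM).

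Heat-shock genes, which respond to protein damage and to dissociation, took 22987 CPM in Tie2-GFP endothelial and 3707 CPM in intermediate barcodes, and 6641, 5293 and 3045 CPM in endothelial, mural and intermediate barcodes of NG2-DsRed. Between libraries their sum thus moved the other way from the summed members, being higher in Tie2-GFP endothelial barcodes, where the summed members were lower. Atf3 and Ier3, however, were also higher in Tie2-GFP than in NG2-DsRed endothelial barcodes. Of the 11 heat-shock genes, 10 were at least 2-fold higher in endothelial than intermediate barcodes of Tie2-GFP, against 28.6% of all genes. In NG2-DsRed 3 of 10 measured were, Hspb1, Hspa1a and Dnajb1, a share near the 29.7% of all genes. Mural over intermediate, 2 of 9 were at least 2-fold higher and 1 lower, against 25.6% and 19.9% of all genes, and endothelial over mural 1 of 10 was higher, Dnajb1, against 15.5%. Across barcodes, the summed heat-shock level had an r with the summed members of 0.39 in Tie2-GFP endothelial, 0.62 in Tie2-GFP intermediate, 0.21 in NG2-DsRed endothelial, 0.33 in mural and 0.38 in NG2-DsRed intermediate barcodes. In Tie2-GFP endothelial and intermediate barcodes, mitochondrial percent had an r with the summed members of -0.30 and -0.42. In NG2-DsRed endothelial, mural and intermediate barcodes this r was -0.21, 0.15 and -0.63. Depth (log10 UMIs) had an r of 0.16 and 0.53 in these Tie2-GFP classes and of 0.05, 0.33 and 0.48 in those of NG2-DsRed. For ribosomal percent it was -0.19 and 0.56 in Tie2-GFP and 0.24, 0.24 and 0.26 in NG2-DsRed. The part of depth and RNA quality in the class differences was not tested.

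Mural barcodes differed among themselves by contractile genes, a split made after the values had been seen. The 40 mural barcodes with UMIs of at least 2 of 3 contractile genes had a summed member level of 32017 CPM (31187 to 32863), and the other 57 had 19317 CPM (18633 to 20019), at median depths of 3749 and 2528 UMIs. Atf3 stood at 1191 against 301 CPM, Nr4a1 at 709 against 250 CPM and Ier3 at 414 against 199 CPM, whereas Fosb, at 1900 and 1871 CPM, differed by less than its counting error. At 2000 UMIs, Atf3 was found in 44.1% and 17.0% of these barcodes and Jund in 93.3% and 90.2%. In Tie2-GFP, endothelial barcodes with at least 2 arterial and at most 1 venous gene (115 barcodes, 26114 CPM) and those with at least 2 venous and at most 1 arterial gene (29 barcodes, 25628 CPM) had overlapping intervals of the summed level.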

How the data were processed

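Single-cell RNA was captured with the 10x Chromium 3′ chemistry from 1 pool of SV per reporter line, sorted by FACS where enrichment was required. Deposited by the authors were unnormalised UMI counts for each gene in each barcode, and the submitters' processing notes name bcl2fastq 2.20.0.422 and the build mm10. Whether introns were counted is not given in the sources used here. The library totals were 5432289 UMIs in 633 barcodes (Tie2-GFP) and 1232599 UMIs in 201 barcodes (NG2-DsRed), and classes with few UMIs have wide intervals.

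UMIs were summed per class and divided by the class total (CPM, per 1000000), with 95% exact Poisson intervals. Log2 ratios used sums with 0.5 UMIs added and exact binomial intervals, for genes with at least 50 UMIs over both classes and classes of at least 20 barcodes, and 2-fold was the call. Shares at 2000 UMIs are exact expectations under thinning. Ratios and correlations at 2000 UMIs come from a single random draw of UMIs per barcode and carry the noise of that draw. Intervals cover counting error only. Genes per list were named by the highest log2 ratio (up to 4 for endothelial against intermediate in both libraries, up to 3 for endothelial against mural), and the most alike genes were the 10 with the highest r to the summed members. Members and lists were chosen with earlier results of these data known. Gene coordinates are the GENCODE annotation of GRCm38 (mm10), and promoters are RefSeq GRCm38.p6. Python 3.11.15, numpy 2.4.6, scipy 1.17.1 and pandas 2.3.3 were used. Ratios were tested on simulated counts first. A few genes that the naming rule or the marker lists include are not reported here.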

Additional observations from a re-analysis of the deposited data

Results flagged for a closer look

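Some barcodes that met no class rule held members, and these barcodes entered no comparison above. The 163 such barcodes of Tie2-GFP, with a median of 1533 UMIs and 75.6% mitochondrial transcripts, had a summed member level of 3963 CPM (3814 to 4117). Only 49.7% of them had a UMI of any member, and the median barcode was at 0 CPM. The 21 of NG2-DsRed, with a median of 1220 UMIs, had 22723 CPM (21581 to 23911), led by Fos at 5048 CPM. Of these, 81.0% had a member UMI, and the median barcode was at 6739 CPM. The 4 mural barcodes of Tie2-GFP had 27195 CPM (24365 to 30264) from 336 UMIs, with Fos at 5666, Fosb at 3238 and Egr1 at 2995 CPM. Each is a signal outside the classes compared, and none was tested.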

How the results depend on the processing

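All log2 ratios kept their direction under each alternative that could be run, for each of the 10 members and for their sum. Members moved by over 1.5 times in 8 cases. Ratios and correlations at 2000 UMIs come from a single random draw per barcode, and the part of its noise in these shifts was not tested. Endothelial over intermediate, Egr1 in Tie2-GFP went from 2.26 to 3.33 at 2000 UMIs. In NG2-DsRed, Junb went from 3.10 to 3.76 and Nr4a1 from 5.44 to 4.16 at 2000 UMIs, and Atf3 from 5.94 to 5.06 and Nr4a1 to 4.24 with barcodes of 2 classes kept. Mural over intermediate, Nr4a1 went from 5.11 to 3.69 at 2000 UMIs and to 3.94 with barcodes of 2 classes kept, and Atf3 from 4.48 to 3.63 with the latter. Endothelial over intermediate in Tie2-GFP, the sum's log2 ratio of 3.13 became 3.21 within the study's limits without the mitochondrial limit, 3.39 with barcodes weighted equally, 3.02 without mitochondrial genes and 3.36 at 2000 UMIs. In NG2-DsRed the value of 2.23 became 2.02 with barcodes of 2 classes kept, 2.46 with equal weights and 2.35 at 2000 UMIs. Mural over intermediate, 1.65 became 1.56 with single-type barcodes, 1.51 with higher marker counts and 1.45 with barcodes of 2 classes kept, and the members past 2-fold numbered 7 or 8. Endothelial over mural, 0.58 became 0.65 within the study's limits, 0.73 with higher marker counts, 0.77 with equal weights and 0.75 at 2000 UMIs, and the 2 members past 2-fold became 4 at 2000 UMIs, 5 past 1.5-fold and 1 past 3-fold. The cause of these shifts was not tested.

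The study's limits left 6 and 7 intermediate barcodes, and single-type NG2-DsRed endothelial barcodes numbered 16, so gene ratios from them were not run. Over the alternatives, the median r of the 45 pairs ran from 0.26 to 0.35 in Tie2-GFP endothelial, 0.31 to 0.42 in Tie2-GFP intermediate, 0.32 to 0.49 in NG2-DsRed endothelial, 0.49 to 0.59 in mural and 0.35 to 0.44 in NG2-DsRed intermediate barcodes. Fewest pairs lay above 0 in the last, 32 of 45 at 2000 UMIs. No paired analysis was possible because each line has 1 library. Values of intermediate Atf3 and Nr4a1 rest on 3 to 20 UMIs, which limits their ratios. The folds of sums within the study's limits and the correlations over 8 members were added after seeing the data.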
